A study of Homo sapiens with 60 samples.

Results

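The medium dose of a 70% ethanol extract of Coptidis Rhizoma, the rhizome of Coptis, was set against its low dose in SW1783 cells, an established human astrocytoma line. The 4 libraries were chosen by their labels, 2 at 2.8 µg/mL and 2 at 0.56 µg/mL, out of 60 libraries in the series. RNA was measured by paired-end sequencing after 24 h in Leibovitz's L-15, a medium that carries galactose in place of glucose. The high dose, 14 µg/mL, was per the labels the concentration that costs 20% of viability, and each lower dose was a 5-fold dilution of the one above, so the comparison asks what the extract did below that dose. Beside the 2.8 and 0.56 µg/mL libraries stood 2 libraries at 14 µg/mL, 2 libraries each of an extract of Zizyphi Fructus (jujube fruit) at 20, 100 and 500 µg/mL, and 3 libraries of the vehicle, DMSO. The Coptidis and Zizyphi libraries carry the same set number, 11, and the vehicle libraries do not, so set and treatment cannot be told apart in any level set beside the vehicle. All groups are of this 1 cell line, and the labels do not tell whether replicates were grown separately, so every p-value is set by the spread of these samples alone, and that spread may be technical.

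Coptis rhizome is known for berberine and related alkaloids, and berberine is known to slow complex I of the mitochondrial respiratory chain. Cells answer a shortage of amino acids, a failing mitochondrion or an overloaded endoplasmic reticulum (ER) through the integrated stress response: translation slows while the transcription factor ATF4 is made in larger amounts, and ATF4 with C/EBP partners acts on genes that carry a C/EBP-ATF response element (CARE). The ER also has its own unfolded protein response, in which XBP1 and ATF6 act on chaperone genes through the ER stress response element (ERSE). TXNIP, which restrains glucose uptake, is driven by MondoA when sugar phosphates are plentiful, through a carbohydrate response element (ChoRE). The mitochondrial genome is copied into long transcripts that are cut into 2 ribosomal RNAs, transfer RNAs and the messages of 13 respiratory chain proteins.

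The promoters below are those of genes whose RNA carried the comparison, and each holds one of these elements before a RefSeq start of the gene. They are from RefSeq (GRCh38.p14), run 5′ to 3′ on the gene's strand, and have the element in capitals. The first 5 hold the CARE, searched as TGATGCAA on both strands: CHAC1 (chr15:40953221-40953340, plus strand), CEBPG (chr19:33373993-33374112, plus strand), HERPUD1 (chr16:56931892-56932011, plus strand), AARS1 (chr16:70289637-70289756, minus strand) and IARS1 (chr9:92293698-92293817, minus strand). HSPA5 (chr9:125241344-125241463, minus strand) and XBP1 (chr22:28800570-28800689, minus strand) hold the ERSE, searched on both strands as CCAAT and CCACG with 9 bases of any kind between them. TXNIP (chr1:145996580-145996729, minus strand) holds a relaxed ChoRE, searched on both strands as CACGNG and CNCGNG with 5 bases of any kind between them.
CHAC1: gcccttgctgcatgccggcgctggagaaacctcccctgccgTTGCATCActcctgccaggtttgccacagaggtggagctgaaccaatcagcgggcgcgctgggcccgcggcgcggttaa
CEBPG: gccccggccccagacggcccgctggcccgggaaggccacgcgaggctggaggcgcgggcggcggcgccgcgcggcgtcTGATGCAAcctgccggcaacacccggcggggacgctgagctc
HERPUD1: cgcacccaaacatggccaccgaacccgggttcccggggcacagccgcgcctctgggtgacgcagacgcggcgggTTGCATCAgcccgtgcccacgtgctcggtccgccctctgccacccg
AARS1: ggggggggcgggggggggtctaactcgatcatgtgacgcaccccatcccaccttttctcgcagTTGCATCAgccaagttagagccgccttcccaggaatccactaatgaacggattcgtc
IARS1: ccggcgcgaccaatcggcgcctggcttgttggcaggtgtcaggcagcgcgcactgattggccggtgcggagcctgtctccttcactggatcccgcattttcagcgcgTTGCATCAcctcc
HSPA5: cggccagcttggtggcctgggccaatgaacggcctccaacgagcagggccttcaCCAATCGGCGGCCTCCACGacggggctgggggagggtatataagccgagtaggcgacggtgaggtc
XBP1: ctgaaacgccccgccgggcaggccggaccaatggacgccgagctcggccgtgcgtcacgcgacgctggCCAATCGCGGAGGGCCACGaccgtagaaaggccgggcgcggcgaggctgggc
TXNIP: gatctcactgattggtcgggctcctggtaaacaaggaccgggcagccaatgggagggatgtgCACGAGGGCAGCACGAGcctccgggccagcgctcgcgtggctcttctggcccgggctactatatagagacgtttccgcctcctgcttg
Among 10 aminoacyl-tRNA synthetase genes with a promoter entry, 6 held the CARE in the 250 bases before to 50 bases after the start (AARS1, CARS1, IARS1, MARS1, NARS1 and TARS1), which is 60%, against 1.08% of 27305 genes. Of 20 ATF4 pathway genes with an entry, 2 held it (10%). The ERSE stood in 7 of 17 ER chaperone genes (41.2%), namely CALR, CANX, CRELD2, HSP90B1, HSPA5, PDIA6 and XBP1, against 0.0916% of all genes. Among 7 genes of the MondoA list with an entry, TXNIP alone held the relaxed ChoRE, against 0.619% of all genes, and none held the strict form, CACGTG and CACGTG at the same distance. A match describes letters in this window and is no proof of a working site.

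At 2.8 µg/mL the cells held more RNA of ATF4 stress response, tRNA synthetase and ER chaperone genes and of the 2 mitochondrial ribosomal RNAs, and less RNA of mitochondrial messages and of DNA replication and mitosis genes, than at 0.56 µg/mL. Of 16812 genes tested, 2280 were called at an adjusted p under 0.05 (13.6%), 1305 of them higher at the medium dose (7.76%) and 975 lower (5.8%). The change was small for most: the median size over the called genes was 0.29 on the log2 scale, 89 rose and 31 fell by more than 1 log2 unit, and the median over all tested genes was 0.00 (0.00487). Both medium libraries lay above both low libraries for 29.3% of all genes and below for 26.3%. The count fell to 1336 without replicate 2 and 1370 without replicate 3 of the medium dose, and to 1247 without replicate 2 and 1277 without replicate 3 of the low dose, each time with 1 lone library assumed to vary like the other groups. Medium libraries held 25495877 and 24623154 counts and low libraries 24655146 and 24240792, and the other 11 libraries of the fit held 15996157 to 27911643.

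Among protein-coding genes averaging at least 1 CPM (counts per 1e6 scaled counts of the library) in the 4 libraries, the largest called rise was that of GDF15, a stress cytokine that signals to the brainstem (ENSG00000130513, chr19:18374731-18389176). It stood at 32.7 and 33.3 CPM at the medium dose, against 3.60 and 4.23 CPM at the low dose, a log2 fold change of 3.07 ± 0.083 (SE, n = 2 each; adjusted p = 7.78e-15). CHAC1, which degrades glutathione, had 33.0 and 34.1 CPM at the medium dose and 5.74 and 5.39 CPM at the low dose (log2 fold change 2.59 ± 0.11). TRIB3, a pseudokinase that damps ATF4 signalling (chr20:362835-397559), had 101.1 and 100.8 CPM at the medium dose and 17.4 and 19.1 CPM at the low dose (log2 fold change 2.47 ± 0.056, adjusted p = 9.98e-16). Doses that do not overlap were a condition for entering the largest rises, so the gap between the doses is no separate support for these 3 genes. The other large rises were ADM2, a peptide hormone of the adrenomedullin family (log2 fold change 2.88), CBS, which makes cystathionine from homocysteine (2.08), HKDC1, a hexokinase-like enzyme (1.99), IL1A, the cytokine interleukin 1 alpha (1.98), and ULBP1, a stress ligand of natural killer cells (1.94). IL1A and ULBP1 were scarce, with IL1A at 2.37 and 1.58 CPM at the medium dose and 0.554 and 0.439 CPM at the low dose.

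**Figure D1:**
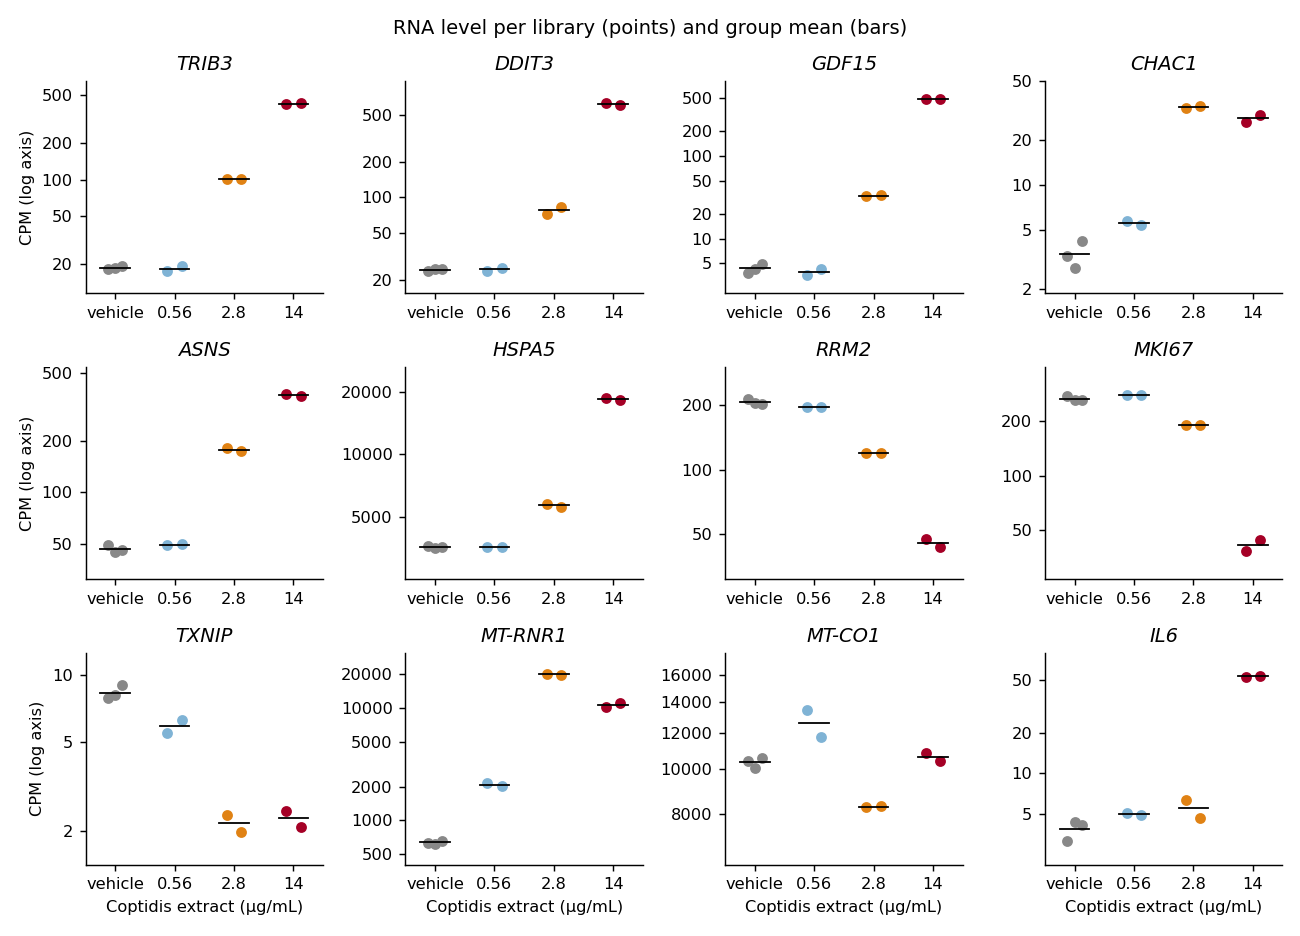
CPM on a log axis in each library (points) with the group mean (bar), for vehicle and for 0.56, 2.8 and 14 µg/mL of Coptidis extract, 3 vehicle and 2 libraries per dose. TRIB3, DDIT3, GDF15, ASNS and HSPA5 were near their vehicle level at 0.56 µg/mL and stepped up at 2.8 and again at 14 µg/mL, CHAC1 and MT-RNR1 were highest at 2.8 µg/mL, and IL6 was high at 14 µg/mL only.

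Genes of the ATF4 integrated stress response rose almost without exception: 24 of 25 tested members were higher at the medium dose and none was lower, beside 7.76% of all genes called higher. The list median was 1.14 on the log2 scale against 0.00487 over all genes. The transcription factors of the pathway moved by unlike amounts. ATF4 itself had 261 and 272 CPM at the medium dose, against 125 and 117 CPM at the low dose (log2 fold change 1.13 ± 0.045). DDIT3, the factor CHOP that marks prolonged stress, had 72.5 and 83.0 CPM at the medium dose and 23.6 and 25.4 CPM at the low dose (1.66 ± 0.075, adjusted p = 2.14e-11). CEBPG, a C/EBP partner of ATF4, rose by 1.04, ATF3, a repressor induced with it, by 1.55 and NUPR1, a small chromatin protein, by 1.77 on the log2 scale. CEBPB was the 1 member without a call, at 57.01 and 51.2 CPM at the medium dose and 46.4 and 41.4 CPM at the low dose (adjusted p = 0.24).

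The enzymes and carriers under ATF4 rose too. ASNS, which makes asparagine, had 182 and 174 CPM at the medium dose, against 48.9 and 49.7 CPM at the low dose (log2 fold change 1.85 ± 0.045, adjusted p = 1.80e-15). The 3 enzymes of serine synthesis rose, PHGDH by 1.05, PSAT1 by 1.70 and PSPH by 0.48 on the log2 scale. The mitochondrial one-carbon enzymes SHMT2, MTHFD2 and ALDH1L2 rose by 0.64, 0.89 and 1.34. Among the carriers, SLC7A5, which takes up large neutral amino acids, had 493 and 509 CPM at the medium dose and 169 and 174 CPM at the low dose (1.55 ± 0.050). SLC7A11, the cystine carrier, rose by 1.04 and SLC3A2, the heavy chain that both carriers need, by 0.78. SESN2, a leucine sensor that holds mTORC1 down, had 68.2 and 71.1 CPM at the medium dose and 18.5 and 19.5 CPM at the low dose (1.87 ± 0.070). DDIT4, another brake on mTORC1, rose by 1.14 on the log2 scale.

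Of 13 cytosolic aminoacyl-tRNA synthetases, the enzymes that load amino acids onto tRNA, 12 rose and none fell, with a median of 0.65 on the log2 scale. The share of all genes called higher was 7.76%. GARS1, for glycine, had 385 and 381 CPM at the medium dose and 191 and 198 CPM at the low dose (log2 fold change 0.98 ± 0.041), and AARS1, for alanine, rose by 0.82. LARS1, for leucine, rose least among the called ones, by 0.31. VARS1, for valine, was not called, at 197 and 210.3 CPM at the medium dose and 189 and 192 CPM at the low dose (adjusted p = 0.11). Of the 6 synthetases whose promoter held the CARE, printed above for AARS1 and IARS1, all rose.

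The ER arm moved less. Of 18 ER chaperone and unfolded protein response genes, 15 rose and none fell, with a median of 0.30 on the log2 scale, beside 7.76% of all genes called higher. HERPUD1, an anchor of ER-associated degradation that carries the CARE printed above, had 189 and 188 CPM at the medium dose, against 74.8 and 74.6 CPM at the low dose (log2 fold change 1.34 ± 0.044, adjusted p = 2.00e-13). HSPA5, the main ER chaperone BiP, had 5782 and 5611 CPM at the medium dose and 3583 and 3587 CPM at the low dose (0.67 ± 0.034). DNAJB9, a co-chaperone of BiP, rose by 0.77 and XBP1 by 0.49. The lectin chaperone CANX and the co-chaperones DNAJB11 and DNAJC3 had log2 fold changes of 0.10, 0.04 and 0.12 and were not called. The folding enzymes PDIA3 (0.12) and PDIA6 (0.19) and the chaperone HSP90B1 (0.20) were called at small sizes.

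**Figure D2:**
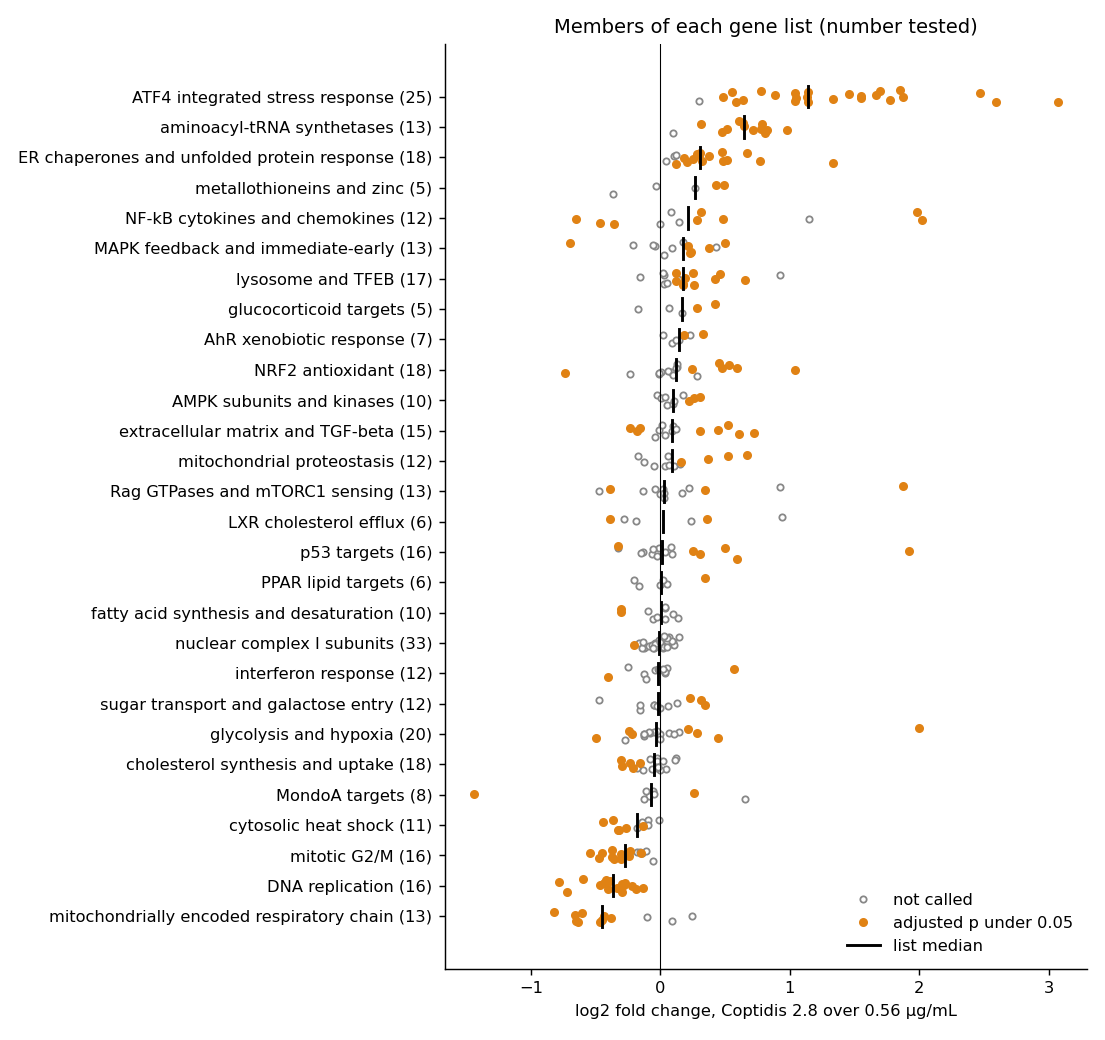
Log2 fold change of medium over low dose (horizontal axis) for each tested member of the 28 pathway lists (rows, number tested in brackets), filled where the adjusted p was under 0.05, with the list median as a bar. ATF4 genes reach 3.07 and have a median of 1.14, tRNA synthetases and ER chaperones follow, and the medians of DNA replication, mitotic and mitochondrially encoded genes lie below 0.

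Mitochondrially encoded RNA moved in both directions. The small ribosomal RNA MT-RNR1 (chrM:648-1601) had 20224 and 19821 CPM at the medium dose, against 2147 and 2005 CPM at the low dose (log2 fold change 3.27 ± 0.063, adjusted p = 1.23e-16), the largest rise among the named genes. The large ribosomal RNA MT-RNR2 (chrM:1671-3229) had 91254 and 91381 CPM at the medium dose and 18107 and 16784 CPM at the low dose (2.39 ± 0.058). Of the 13 messages of respiratory chain proteins, 9 fell and none rose, with a median of -0.45 on the log2 scale. The share of all genes called lower was 5.8%. MT-ND3, a complex I subunit, had 656 and 764 CPM at the medium dose, against 1337 and 1174 CPM at the low dose (-0.82 ± 0.084, adjusted p = 1.66e-06). MT-CO1, the catalytic subunit of complex IV, had 8277 and 8337 CPM at the medium dose and 13439 and 11772 CPM at the low dose (-0.60 ± 0.068). For both messages each medium library lay under each low library.

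**Figure D3:**
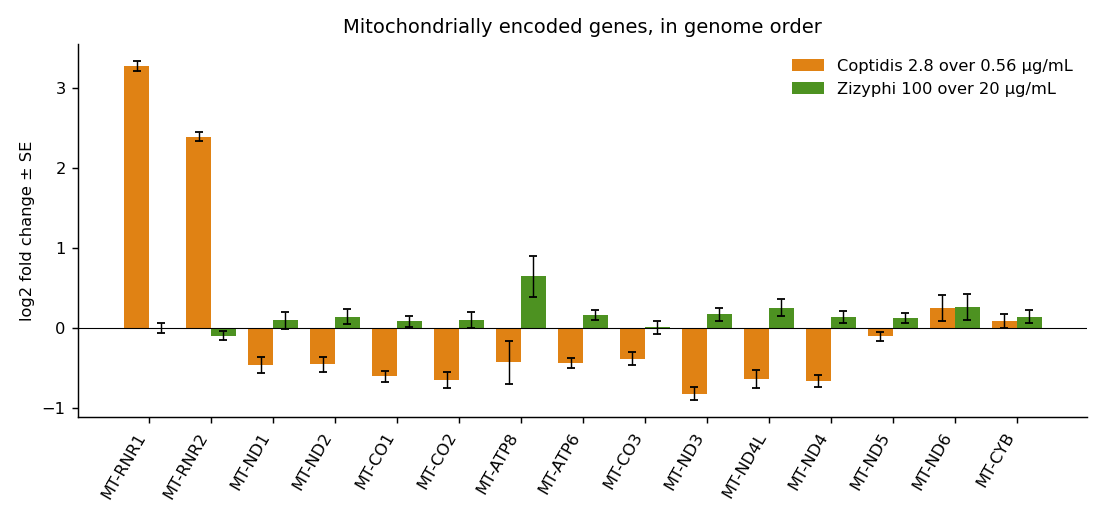
Log2 fold change ± SE of medium over low dose for the mitochondrially encoded ribosomal RNAs and messages in the order of the mitochondrial genome, for Coptidis (2.8 over 0.56 µg/mL, orange) and Zizyphi (100 over 20 µg/mL, green), n = 2 libraries per dose. For Coptidis the bars of MT-RNR1 and MT-RNR2 reach 3.27 and 2.39 while most messages lie below 0, and for Zizyphi no bar is called.

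The messages that fell ran from MT-ND1 to MT-ND4 along the genome, and the 3 last ones, MT-ND5 (-0.11), MT-ND6 (0.25) and MT-CYB (0.09), were not called, nor was MT-ATP8 (-0.43). MT-ATP8 and MT-ATP6, and MT-ND4L and MT-ND4, overlap in the genome, so reads between them are uncertain, and the nuclear genome holds copies of mitochondrial sequence. Of the 9 falls 6 were called without replicate 2 of the low dose, and 6 without replicate 2 of the medium dose, and MT-ND1 was among the messages without a call in both. Of 33 nuclear genes for complex I subunits, 1 fell and none rose, beside 5.8% of all genes called lower and 7.76% higher. The 1 that fell, NDUFA6, had 65.8 and 65.5 CPM at the medium dose and 76.9 and 74.6 CPM at the low dose (log2 fold change -0.21). The difference from the Zizyphi change was called lower for 6 of the 33 (NDUFA1, NDUFA6, NDUFB1, NDUFB4, NDUFB11 and NDUFC1), against 2.77% of all genes. Their Coptidis values ran from -0.21 to -0.04 and their Zizyphi values from 0.09 to 0.33, and none of the Zizyphi values was called. Among 12 mitochondrial chaperone and protease genes 4 rose: LONP1, a matrix protease, had 104 and 106 CPM at the medium dose and 66.9 and 65.3 CPM at the low dose (0.67 ± 0.042), HSPA9, the matrix Hsp70, rose by 0.52, OMA1, an inner membrane protease, by 0.37 and DNAJA3 by 0.16. ATF5, HSPD1 and HSPE1 had log2 fold changes of -0.12, -0.05 and -0.17 without a call. Over all genes 7.76% were called higher. A fit without any mitochondrially encoded gene, tried after the data were seen, called 2270 genes, 1254 higher and 1016 lower and shared 2219 calls with the fit of all genes. The libraries were mRNA libraries per the labels, so the ribosomal RNA values count molecules that such a library captured.

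Genes of cell division fell together. All 16 DNA replication genes were lower at the medium dose, with a median of -0.36 on the log2 scale, as were 11 of 16 mitotic genes, with a median of -0.27, and no member of either list was higher. Over all genes 5.8% were called lower. RRM2, the ribonucleotide reductase subunit that limits DNA precursors, had 120 and 119 CPM at the medium dose, against 197 and 196 CPM at the low dose (log2 fold change -0.72 ± 0.043, adjusted p = 1.11e-09). CCNE2, a cyclin of the entry into S phase, had 16.8 and 16.6 CPM at the medium dose and 27.8 and 29.6 CPM at the low dose (-0.78 ± 0.082). Thymidylate synthase TYMS fell by 0.60 and the replicative helicase subunits MCM2 to MCM7 by 0.19 to 0.43. MKI67, the proliferation marker Ki-67, had 192 and 191 CPM at the medium dose and 280 and 279 CPM at the low dose (-0.54 ± 0.050). CCNB1, CCNB2, PLK1, BUB1 and CDC20, regulators of mitosis, were the mitotic members without a call, with log2 fold changes from -0.18 to -0.06. Fewer cycling cells and less RNA per cell cannot be told apart in such bulk libraries.

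TXNIP was the steepest fall among genes of sugar use (chr1:145992435-145996600). It had 2.37 and 1.98 CPM at the medium dose, against 5.50 and 6.31 CPM at the low dose (log2 fold change -1.44 ± 0.14, adjusted p = 7.37e-07). Its paralog ARRDC4, the other classical MondoA target, did not follow, at 4.15 and 4.92 CPM at the medium dose and 4.55 and 5.07 CPM at the low dose (-0.09 ± 0.12, adjusted p = 0.75). Of 8 genes on the MondoA list 1 rose, the MondoA gene MLXIP itself (0.26), and TXNIP alone fell. MLXIP lost its call in 2 of the 4 fits that left out a library, without replicate 3 of either dose. The glucose carriers SLC2A1 (199 and 209.5 CPM at the medium dose, 163 and 164 CPM at the low dose, log2 fold change 0.32) and SLC2A3 (0.34) rose, and the galactose enzymes GALK1, GALT and GALM were not called. Among 20 glycolysis and hypoxia genes 4 rose, HKDC1, HK2, PFKP and VEGFA, and 3 fell, PFKFB3, PFKFB4 and LDHA. Over all genes 7.76% were called higher and 5.8% lower, and the median of that list was -0.04 on the log2 scale.

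Other large falls were of scarce RNAs. SERPINB3, a protease inhibitor of squamous epithelium, had 1.78 and 1.63 CPM at the medium dose, against 5.11 and 5.43 CPM at the low dose (log2 fold change -1.63 ± 0.15). Its reads may be shared with its near copy SERPINB4. VSNL1, a neuronal calcium sensor, fell by 1.46, SKIDA1 by 1.39, DHRS2, a mitochondrial dehydrogenase, by 1.24, and the long noncoding RNA PART1 by 1.07 on the log2 scale. The most abundant of these was VAV3, an exchange factor for small GTPases, at 8.89 and 11.0 CPM at the medium dose and 20.5 and 22.3 CPM at the low dose (-1.11 ± 0.099). The antisense RNA TMPO-AS1 fell by 1.12, a value that is uncertain because the strand setting of the counting is not given. SLC38A3, a glutamine carrier, fell by 1.06 and lost its call when replicate 2 of the low dose was left out (adjusted p = 0.0669).

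Stress and signalling lists moved in part, and their counts are to be read beside 7.76% of all genes called higher and 5.8% lower. List medians were -0.18 for heat shock, 0.12 for NRF2 and 0.17 for lysosome genes on the log2 scale. Of 11 cytosolic heat shock genes 6 fell and none rose, among them HSPA8, the constitutive Hsp70, at 998 and 984 CPM at the medium dose, against 1256 and 1234 CPM at the low dose (log2 fold change -0.33). HSPA1A (-0.44) and HSPA1B (-0.37) are near-identical copies, so the split of reads between them is uncertain. Of 18 NRF2 antioxidant genes 6 rose, with HMOX1, the haem oxygenase, at 83.9 and 83.3 CPM at the medium dose and 55.6 and 55.4 CPM at the low dose (0.59 ± 0.050), and SLC7A11, the ferritin chains FTL (0.53) and FTH1 (0.46), GCLC (0.47) and TXNRD1 (0.25) beside it. The ferritin genes have many near copies in the genome, so their values are uncertain. AKR1B10 (-0.74) was the 1 member that fell, and GCLM (0.00) and SRXN1 (0.13) were not called. Of 17 lysosome and TFEB genes 10 rose and none fell, led by the autophagy receptor SQSTM1, at 811 and 829 CPM at the medium dose and 527 and 517 CPM at the low dose (0.65 ± 0.043). That count was 5 without replicate 3 of the medium dose and 6 without replicate 2 of the low dose.

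Among 16 p53 targets 5 rose and FAS fell by 0.32, beside 7.76% of all genes called higher and 5.8% lower. The p53 list median was 0.01 on the log2 scale. Medians of the other lists in this paragraph were 0.21 for cytokines and chemokines, 0.09 for matrix and -0.05 for cholesterol genes. The p53 targets that rose were GADD45A (0.50), TNFRSF10B, a TRAIL receptor (0.59), PHLDA3 (0.30), XPC (0.25) and the scarce BBC3 (1.92). CDKN1A, the cell cycle inhibitor p21, had 18.7 and 21.2 CPM at the medium dose and 20.2 and 21.5 CPM at the low dose (log2 fold change -0.07, adjusted p = 0.71). Of 12 cytokine and chemokine genes 5 rose, IL1A, IL1B, LIF, CXCL3 and ICAM1, and 3 fell, CCL2 (-0.65), IL11 (-0.47) and NFKBIA (-0.36). Without replicate 3 of the medium dose 1 rise and 2 falls of that list were called, and without any of the other 3 libraries 3 rises. IL6 had 6.31 and 4.66 CPM at the medium dose and 5.03 and 4.91 CPM at the low dose and was not called (adjusted p = 0.67). Of 15 matrix genes 5 rose, among them CCN1 (0.73), CCN2 (0.52), ACTA2 (0.61) and TAGLN (0.44), and the collagen genes COL1A1 (-0.18), COL1A2 (-0.15) and COL3A1 (-0.23) fell. Cholesterol synthesis and uptake had 5 falls among 18 genes and no rise. That count was 2 or 3 with any 1 of the 4 libraries left out.

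The remaining lists had between 1 and 6 calls each, beside 7.76% of all genes higher and 5.8% lower. Of 13 immediate-early and MAPK feedback genes 5 rose, MYC the most (0.50), and FOS fell by 0.70. Of 13 Rag GTPase and mTORC1 sensing genes SESN2 and RRAGC (0.34) rose and SESN3 (-0.39) fell. Of 10 genes on the AMPK list 3 rose, FNIP1 (0.31), FLCN (0.26) and PRKAG2 (0.22), of which PRKAG2 alone encodes an AMPK subunit. Rises numbered 2 of 5 metallothioneins (MT2A 0.49 and MT1E 0.43), 2 of 5 glucocorticoid targets (TSC22D3 0.42 and KLF9 0.29) and 2 of 7 AhR genes (TIPARP 0.33 and NQO1 0.18), with no fall. CYP1A1, the classical AhR target, had 1.27 and 1.10 CPM at the medium dose and 1.23 and 0.918 CPM at the low dose and was not called. Among 12 interferon genes IRF7 rose (0.57) and IFI44L fell (-0.40), among 6 LXR genes ABCA1 rose (0.36) and LPCAT3 fell (-0.39), of 6 PPAR genes PLIN2 rose (0.34), and of 10 fatty acid genes ELOVL6 and FADS2 fell, both by 0.30.

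Some of the calls named here were lost when 1 library was left out, and calls over all genes also became fewer in each such fit. With replicate 2 of the low dose left out, IRF7, NQO1, ELOVL6, NDUFA6, SESN3 and DUSP5 lost theirs. Without replicate 3 of the low dose NQO1, DUSP5, MT1E and PRKAG2 did. Without replicate 2 of the medium dose SESN3, OMA1, DUSP5, MT1E, NQO1, PRKAG2 and PTPRC did, and without replicate 3 of the medium dose IRF7 and DUSP5. TNFSF10, the death ligand TRAIL (-1.24), lost its call whichever of the 4 libraries was left out. The 5 rises of p53 targets became 3 without replicate 2 of the low dose or replicate 3 of the medium dose. The 5 rises of MAPK genes became 2 without either low-dose library or without replicate 2 of the medium dose. The 4 rises of mitochondrial chaperones and proteases became 2 without replicate 2 of the medium dose, and the 3 falls of matrix genes became 0 to 2 with any 1 of the 4 libraries left out.

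Across the dose series TRIB3, GDF15, HSPA5 and RRM2 averaged near the vehicle at 0.56 µg/mL. Other genes named above did not, such as CHAC1 (5.56 against 3.42 CPM in vehicle) and FTL (1355 against 961 CPM). The low dose was not tested against the vehicle, whose libraries carry another set number, and genes near the vehicle were not counted. TRIB3 averaged 18.6 ± 0.47 CPM in vehicle (SD, n = 3) and 18.3 ± 1.2, 101 ± 0.20 and 427 ± 5.8 CPM at 0.56, 2.8 and 14 µg/mL (n = 2 each). GDF15 averaged 4.36, 3.92, 33.0 and 489 CPM in the same order, HSPA5 3593, 3585, 5697 and 18422 CPM, and RRM2 208, 197, 120 and 45.7 CPM. The mitochondrial ribosomal RNAs differed from these already at the lowest dose. MT-RNR1 averaged 637 ± 18, 2076 ± 100, 20022 ± 285 and 10646 ± 629 CPM, so it was highest at 2.8 µg/mL. Some mitochondrial messages were also above vehicle at 0.56 µg/mL. MT-ND1 averaged 2228, 5082, 3684 and 3225 CPM, and MT-ND2 2316.5, 4423.5, 3230 and 3277 CPM. Low-dose Zizyphi, of the same set, averaged 3571 and 3361 CPM for them. For these messages the fall at 2.8 µg/mL ended near that level and above the vehicle. The other messages called lower averaged less at 2.8 µg/mL than in vehicle, such as MT-CO1 at 8307 against 10349 CPM. TXNIP averaged 8.33, 5.91, 2.17 and 2.28 CPM.

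The step from medium to high dose was larger, with 10440 genes called (62.1%), 31.5% of all genes higher and 30.6% lower. It shares the medium libraries with the comparison above, so the values are only set side by side. At 14 over 2.8 µg/mL, 18 of 18 ER genes, 20 of 25 ATF4 genes and 12 of 13 tRNA synthetases were called higher, 1 ATF4 gene was lower, and all 16 mitotic genes were lower. DDIT3 changed by 3.01 on the log2 scale in that step and by 1.66 in the lower one, and HSPA5 by 1.69 and 0.67. Other members had reached their level at 2.8 µg/mL: DDIT4 (-0.04, adjusted p = 0.50), PSAT1 (0.04, adjusted p = 0.48), IARS1 (0.00, adjusted p = 0.98) and TXNIP (0.07, adjusted p = 0.79) were not called between high and medium dose. CHAC1 (-0.25, adjusted p = 0.0273), MT-RNR1 (-0.91) and MT-RNR2 (-1.26) were lower at the high than at the medium dose. Among 13 mitochondrial messages 6 were called higher and 1 lower at 14 µg/mL, beside those shares over all genes, with MT-ND3 at 0.90. IL6 (3.28), CDKN1A (1.32), KRT75 (4.40) and the lysosomal RRAGD (3.83), none called between medium and low dose, were called between high and medium dose. KRT75 and RRAGD were under 1 CPM at 0.56 and 2.8 µg/mL, and their log2 fold changes of medium over low dose were 0.99 and 0.93.

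The same dilution step of Zizyphi, 100 over 20 µg/mL in the same set, gave no call with edgeR (0 of 16812 genes, 0%), with 1060 genes at an unadjusted p under 0.05 against 4370 for Coptidis, and 3 calls with DESeq2. Without replicate 2 of the 100 µg/mL Zizyphi libraries edgeR called 26 genes, and without replicate 2 of the 20 µg/mL libraries 3. Set against each other, the Coptidis change differed from the Zizyphi change in 1172 genes (6.97%), 706 with a higher value for Coptidis (4.2%) and 466 with a lower one (2.77%). These genes numbered 721 and 765 without replicate 2 or 3 of low-dose Coptidis and 755 without replicate 2 of low-dose Zizyphi. The difference was called for 24 of 25 ATF4 genes, 12 of 13 tRNA synthetases, 12 of 18 ER genes, 12 of 16 DNA replication genes, 12 of 16 mitotic genes and 9 of 13 mitochondrial messages, each in the direction of the Coptidis change. For TRIB3 it was 2.48 on the log2 scale: Zizyphi libraries had 17.2 and 14.8 CPM at 100 µg/mL and 16.5 and 15.9 CPM at 20 µg/mL. For MT-RNR1 it was 3.27, with Zizyphi at 732 and 852 CPM at 100 µg/mL and 768 and 819 CPM at 20 µg/mL. TXNIP stood at 13.5 and 14.1 CPM at 100 µg/mL of Zizyphi and 10.3 and 9.51 CPM at 20 µg/mL, and its difference was -1.90 (adjusted p = 4.25e-07). For SESN3 (-0.12) and NQO1 (0.10) the difference was not called.

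**Figure D4:**
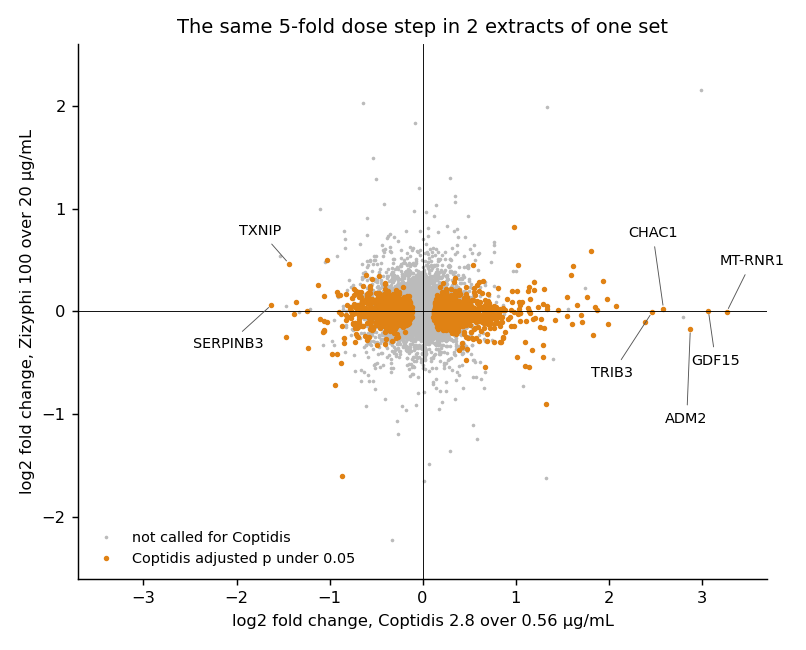
Log2 fold change of medium over low dose for Coptidis (horizontal, 2.8 over 0.56 µg/mL) and Zizyphi (vertical, 100 over 20 µg/mL) for the 13882 genes averaging 1 CPM or more in the 4 Coptidis libraries, orange where called for Coptidis, with 1 gene outside the range drawn. Called genes spread along the Coptidis axis to 3.27 and none is called for Zizyphi. TXNIP lies at -1.44 for Coptidis and 0.46 for Zizyphi.

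The number of calls depended on which libraries the fit held, and the cause was not tested. In a fit over all 57 libraries of the 22 groups with replicates, 273 genes were called, 1.02% of all genes higher and 0.51% lower. Among the 57 are 2 libraries of other sets, replicate 1 of Aconiti at its high dose and of Yijung-tang at its low dose, that earlier results of these data had shown to stand apart. There 22 of 25 ATF4 genes, 8 of 13 tRNA synthetases, 3 of 18 ER genes and 4 of 16 DNA replication genes were still called, and no mitotic gene and no mitochondrial message was. Lysosome genes had 3 rises there, NRF2 genes 1, heat shock genes 1 fall and cholesterol genes 0, and no MAPK, AMPK, AhR, metallothionein, interferon, LXR or fatty acid gene was called. Without those 2 libraries 2418 genes were called, 7.83% of all genes higher and 5.45% lower, among them 24 ATF4, 12 tRNA synthetase, 16 ER, 16 DNA replication and 11 mitotic genes and 9 mitochondrial messages.

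Markers of astrocytes were mixed: the intermediate filament VIM was abundant, while GFAP had 34 counts, AQP4 3 and ALDH1L1 6 over all 15 libraries. SLC1A3, a glutamate carrier of astrocytes, had 19.0 and 20.1 CPM at the medium dose, against 32.2 and 33.4 CPM at the low dose (log2 fold change -0.75 ± 0.075), the 1 call among 5 tested astrocyte markers. The summed astrocyte list stood at 5233 and 5172 CPM at the medium dose and 4903 and 4715 CPM at the low dose. That sum was mostly VIM, with 1628121 counts over the 15 libraries against 71961 for GJA1, the next. The median log2 fold change of the tested astrocyte markers was -0.15. Of 6 tested neuron markers TUBB3 (-0.37) and SNAP25 (-0.46) fell, with list sums of 134 and 134 CPM at the medium dose and 160 and 159 CPM at the low dose, and PTPRC (-0.49) fell among 3 tested leukocyte markers. None of 4 oligodendrocyte, 3 endothelial and 4 epithelial markers was called. These counts are to be read beside 7.76% of all genes called higher and 5.8% lower. In the fit over 57 libraries no astrocyte, neuron or leukocyte marker was called. MOG, OLIG1, TYROBP, C1QA and C1QB had no count in the 15 libraries. Other members of the same lists were detected there, such as CNP (44126 counts), MBP (2432), CD68 (57797) and PTPRC (3614). The part of the marker levels in the other results was not tested.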

How the data were processed

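RNA of 60 SW1783 libraries was sequenced as 100 bp pairs from a directional mRNA kit. The authors deposited expected counts per gene; per the submitters' processing notes RSEM 1.3.3, STAR 2.7.3a, FastQC 0.11.9 and Trim Galore 0.6.5 were used with hg38/GRCh38. The annotation and the strand setting: not given in the sources used here. Of the deposited expected counts 9.18% were not whole, and all were rounded. Gene positions and symbols are from GENCODE 29.

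One edgeR 4.0.16 quasi-likelihood fit (R 4.3.3, TMM scaling, filterByExpr at a minimum count of 10, group as the only term, 8 residual degrees of freedom) held 15 libraries: Coptidis and Zizyphi at each dose and the vehicle. Tests were two-sided, p-values were adjusted by Benjamini-Hochberg within a comparison, and an adjusted p under 0.05 was a call. The SE was derived from the log2 fold change and its F statistic. Alternatives were DESeq2 1.42.0, other sets of libraries, no filter, a replicate block and leaving out each replicate. Replicate pairs differed beyond sampling noise (chi-square per gene 1.93 to 5.26).

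Named genes were the 10 largest called rises and falls with a mean of at least 1 CPM and doses that do not overlap, up to 3 called genes per list and genes set by name. Other list members named fall outside that rule and were chosen after their values were seen. The compared groups, gene lists and tests were chosen with earlier results of these data known. The scripts were tested on simulated data.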

Additional observations from a re-analysis of the deposited data

Results flagged for a closer look

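The change between medium and low dose differed between the extracts, Coptidis (2.8 over 0.56 µg/mL) minus Zizyphi (100 over 20 µg/mL), in 1172 of 16812 genes by a test of the difference itself in edgeR (adjusted p under 0.05). The groups of 2 or 3 libraries are too small for a search for libraries far from their group. On the log2 scale the difference was 3.27 for MT-RNR1, 3.07 for GDF15, 3.05 for ADM2, 2.56 for CHAC1, 2.49 for MT-RNR2, 2.48 for TRIB3, 2.11 for HKDC1, 2.03 for CBS, 1.86 for IL1A and 1.65 for ULBP1. It was -1.90 for TXNIP, -1.69 for SERPINB3, -1.38 for TMPO-AS1, -1.36 for SKIDA1, -1.25 for DHRS2, -1.22 for SLC38A3 and -1.03 for VAV3. Of the 10 named genes with the largest falls, VSNL1, PART1 and TNFSF10 had no call for the difference. For TXNIP the extracts lay on either side of 0, at -1.44 for Coptidis and 0.46 for Zizyphi, and the Zizyphi change itself was not called (adjusted p = 0.21).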

How the results depend on the processing

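Called genes between medium and low dose of Coptidis numbered 2280 and stayed within 1.5 times of that in 8 alternatives, from 1580 with DESeq2 to 2597 with only the libraries compared. With all 57 libraries the count was 273 for Coptidis medium against low dose, 98 for the difference between the extracts and 6285 for high against medium dose. Leaving out 1 replicate gave 1247 to 1370 genes for medium against low dose, 721 to 989 for the difference, 9129 to 9419 for high against medium dose and 0 to 26 for Zizyphi. For Zizyphi, with 0 calls, other settings gave 1 (without the 2 libraries that stand apart), 2 (only the libraries compared), 3 (DESeq2) and 143 (no filter on low counts). With DESeq2's size factors the calls were 1214 higher and 1055 lower, against 1305 and 975 with TMM. Of 104 named genes 50 lost their call with 57 libraries and between 6 and 11 with 1 library left out, and with DESeq2, which gave an adjusted p for 96 of them, 3 did. No called gene changed sign. The log2 fold changes of 4 genes without a call did in at least 1 alternative: IL6 ranged from -0.09 to 0.34, ARRDC4 from -0.21 to 0.03, CDKN1A from -0.16 to 0.03 and CYP1A1 from -0.05 to 0.37. The fits without mitochondrially encoded genes (2270 calls) and without high doses and vehicle (2246) were chosen after seeing the data. The cause of these shifts was not tested. Same-numbered libraries showed little common deviation (correlation 0.0199 for Coptidis medium and low dose, -0.362 to 0.289 over the pairs of 6 groups). With 2 libraries a group these values cannot settle whether the numbers pair them. A replicate block gave 2193 calls for medium against low dose, 1146 for the difference, 10391 for high against medium dose and 0 for Zizyphi, and no named gene lost its call. With 2 libraries a dose, small changes of scarce genes were not detectable.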

Other observations

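Gene families outside the fixed lists were looked at after the values had been seen, so their counts are descriptions, to be read beside 7.76% of all genes called higher and 5.8% lower. Of 25 amino acid carriers of the SLC1, SLC3, SLC6, SLC7 and SLC38 families 11 were called higher at the medium than at the low dose of Coptidis and 4 lower, with a median of 0.23 on the log2 scale, beside 26 higher and 5 lower of 202 other SLC carriers. SLC38A1, a glutamine carrier, had 244 and 244 CPM at the medium dose, against 121 and 132 CPM at the low dose (log2 fold change 0.95). SLC1A4 and SLC6A9, carriers of small neutral amino acids and glycine, rose by 1.03 and 1.04. PPP1R15A, which returns eIF2 to its active form, rose by 0.84, the tRNA exporter XPOT by 0.83, GPT2, which makes alanine, by 0.86 and PYCR1, which makes proline, by 0.72. ATP2A3, a calcium pump of the ER, had 8.38 and 8.53 CPM at the medium dose, against 2.34 and 2.79 CPM at the low dose (1.72).

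Of 19 ORC, MCM and GINS genes 14 fell and none rose, of 21 CENP genes of the centromere 8 fell and none rose, and of 10 FANC genes of crosslink repair 5 fell and none rose. Of 83 cytosolic ribosomal protein genes 12 rose and 1 fell, with a median of 0.08 beside 0.09 in the Zizyphi comparison, and of 78 mitochondrial ribosomal protein genes 2 rose. Among 444 ZNF genes 21 rose and 14 fell, below the shares over all genes. The growth factors FGF7 and TGFB3 fell by 0.76 and 0.68, and DIO2, which activates thyroid hormone, had 30.5 and 31.9 CPM at the medium dose, against 55.9 and 54.4 CPM at the low dose (log2 fold change -0.82). SIK1, a kinase induced by cAMP, rose by 1.26, KLF4 by 1.19, the thrombin receptor THBD by 1.24 and IRS2, an adaptor of the insulin receptor, by 0.95.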
